A study of Mus musculus with 14 samples.

Results

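The genes described here encode the inhibin and activin subunits (Inha, Inhba, Inhbb, Inhbc and Inhbe), the follistatins that bind activins (Fst and Fstl3) and the activin type II receptors (Acvr2a and Acvr2b). They were taken by symbol, each had 1 row on the array, and all 9 of 9 were found among 19505 named genes. They were picked with their knockout differences in view, so those differences are given as a description, without a test of their own. Liver RNA came from male mice on a C57BL/6 background whose Prkaa1 and Prkaa2 genes, which encode both catalytic alpha subunits of the energy sensor AMPK, were floxed and homozygous in every animal. All mice were started on a high-fat diet, with 60% of calories from fat, at 6 weeks of age. At 10 weeks they were injected with 1e11 genome copies of an AAV8 virus that used the hepatocyte-directed TBG promoter. The 6 control samples are from mice given the empty virus, AAV8-TBG-empty, and the 8 knockout samples from mice given AAV8-TBG-Cre, which expresses Cre recombinase. Metformin (50 mg/kg/day) followed for 3 weeks in both groups, livers were taken after a 16 h fast, and the labels give an age of 4 months. Cre was thus directed to hepatocytes, while the RNA came from whole liver, and livers without metformin were not analysed here.

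Activins are dimers of 2 beta subunits, and inhibins pair the alpha subunit, the product of Inha, with a beta subunit. Activins bind a type II receptor, which recruits and phosphorylates a type I receptor such as the product of Acvr1b or Acvr1c, and the type I receptor then phosphorylates SMAD2 and SMAD3. Follistatins hold activins away from their receptors, and inhibins compete for the type II receptors with the help of betaglycan, the product of Tgfbr3. Inhbc and Inhbe are expressed chiefly in the liver, and their products, activin C and activin E, are secreted by hepatocytes; activin E is known to restrain fat breakdown in adipose tissue through the receptor encoded by Acvr1c.

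Inhbc and Inhbe lie next to each other on the same chromosome with 0 annotated genes between them, and they were the members with the largest differences, so the 250 bases before the start of each are shown. Both are on the minus strand of build GRCm38.p6 from RefSeq, at chr10:127351849-127352098 for Inhbe and chr10:127370549-127370798 for Inhbc. Capitals mark a match on the opposite strand to the C/EBP-ATF response element TGATGNAA, at which ATF4 binds in genes of the integrated stress response.
Inhbe: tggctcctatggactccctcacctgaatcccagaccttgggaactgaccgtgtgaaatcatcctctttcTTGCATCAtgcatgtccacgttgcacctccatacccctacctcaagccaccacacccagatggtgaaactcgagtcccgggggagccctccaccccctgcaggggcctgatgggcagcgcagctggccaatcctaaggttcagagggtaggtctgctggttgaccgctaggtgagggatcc
Inhbc: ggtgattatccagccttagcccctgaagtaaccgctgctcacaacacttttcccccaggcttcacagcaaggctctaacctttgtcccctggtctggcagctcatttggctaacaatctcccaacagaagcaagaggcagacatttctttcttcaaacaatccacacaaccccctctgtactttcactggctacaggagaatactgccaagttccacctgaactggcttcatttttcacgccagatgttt
Of the 9 members, 8 had a promoter sequence. Over both strands of those 250 bases, the element TGATGNAA was found in Inhbe, from position -181 before the start (TTGCATCA), and in no other of these 8 members, against 3.45% of 32851 promoters of the same length. The nuclear receptor half-site AGGTCA was found in Inha and Fstl3 (14.0% of promoters). The forkhead core TGTTTAC (3.17% of promoters), the cyclic AMP response element TGACGTCA (1.55%) and the SMAD palindrome GTCTAGAC (0.17%) were found in none of the 8. A match describes the letters and does not show binding.

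The arrays formed 2 sets that the labels do not name, set 1 with control 1 to 3 and knockout 1 to 4, and set 2 with control 4 to 6 and knockout 5 to 8. Correlations over all rows were at least 0.988 within a set and at most 0.963 across sets, so each member is given within the sets, and the fit across all genes had the set as a term. Values are on a log2 scale, on which a difference of 1 is a doubling, and differences are knockout minus control ± SE with 6 and 8 samples. The targeted genes were lower in knockout samples, at -1.13 ± 0.08 for Prkaa2 (limma adjusted p = 1.92e-06) and -0.67 ± 0.13 for Prkaa1 (limma adjusted p = 0.0302). Prkaa2 passed in each of 14 fits that left out 1 array and Prkaa1 in 6 of them, and without control 1 and control 4 together Prkaa1 had a limma adjusted p of 0.124. Hepatocyte markers averaged between 12.5 and 13.0 in every array. Control 1 and control 4 stood apart: their sinusoidal endothelium markers averaged -0.78 and -0.57 relative to the mean of their set, against 0.17 to 0.44 in the other controls and -0.36 to 0.31 in knockout samples. Their Kupffer cell markers averaged -0.58 and -0.38 in the same way, against 0.04 to 0.34 in the other controls and -0.45 to 0.39 in knockout samples. For these markers control 4 thus lay within the range of the knockout samples. Differences without control 1 and control 4 are therefore given below for Inhbe, Inhbc, Fst and Acvr2b. The same fit gave -0.27 ± 0.14 for Inhbb, -0.27 ± 0.17 for Inhba and 0.04 ± 0.16 for Inha. It gave 0.11 ± 0.14 for Fstl3 and 0.06 ± 0.07 for Acvr2a. That fit left out low arrays of the control group only, and knockout arrays low in the same markers were kept. The labels do not say that each sample came from its own mouse, so SE and p-values reflect sample-to-sample spread, part of which may be technical.

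Inhbe and Inhbc, the liver-specific beta subunits, had the highest knockout differences among the members, and both were higher in the knockout livers of each set. In the fit across all genes 2 of 9 members passed an adjusted p of 0.05, these 2, both upward, where 0.702% of all genes passed in either direction, 0.431% upward and 0.272% downward; as the members were picked on this contrast, nothing is read from that count. Inhbe had values of 8.95, 8.96 and 8.56 in the controls of set 1 and 9.62, 9.55, 9.54 and 9.66 in the knockout samples of that set. In set 2 it had 9.49, 10.15 and 9.84 in controls and 10.06, 10.08, 10.48 and 10.52 in knockout samples. The groups did not overlap in set 1, whereas in set 2 control 5 lay above knockout 5 and knockout 6. Separation within a single set was not counted over all genes, so nothing is read from it. The difference was 0.61 ± 0.12, or 1.53-fold, made up of 0.77 ± 0.12 in set 1 and 0.46 ± 0.18 in set 2.

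Inhbc had values of 9.43, 9.75 and 9.64 in the controls of set 1 against 10.15, 10.03, 10.06 and 10.17 in knockout samples. In set 2 it had 9.92, 10.43 and 10.02 in controls against 10.47, 10.66, 10.85 and 10.78 in knockout samples. All 8 knockout samples lay above every control of their own set, which 0.774% of all genes also showed, though knockout 5 exceeded control 5 by little. The difference was 0.53 ± 0.09, or 1.44-fold, with 0.49 ± 0.10 in set 1 and 0.57 ± 0.15 in set 2. Counted from the highest difference among 19505 genes, Inhbe had rank 31 and Inhbc rank 50. Without control 1 and control 4 the differences were 0.56 ± 0.13 for Inhbe and 0.43 ± 0.09 for Inhbc, and neither then passed across all genes. With 1 array left out at a time, the difference ran from 0.54 to 0.70 for Inhbe and from 0.48 to 0.59 for Inhbc. Inhbe missed the threshold without control 1, 2 or 4 or knockout 1, 3, 4, 7 or 8, with differences between 0.56 and 0.62. Knockout 7 carries the same number as knockout 5 in its description, and knockout 8 the same as knockout 6, and with these pairs averaged the differences were 0.64 ± 0.11 for Inhbe and 0.52 ± 0.09 for Inhbc. Without knockout 7 and 8 they were 0.55 ± 0.13 and 0.47 ± 0.10, and neither passed.

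**Figure D1:**
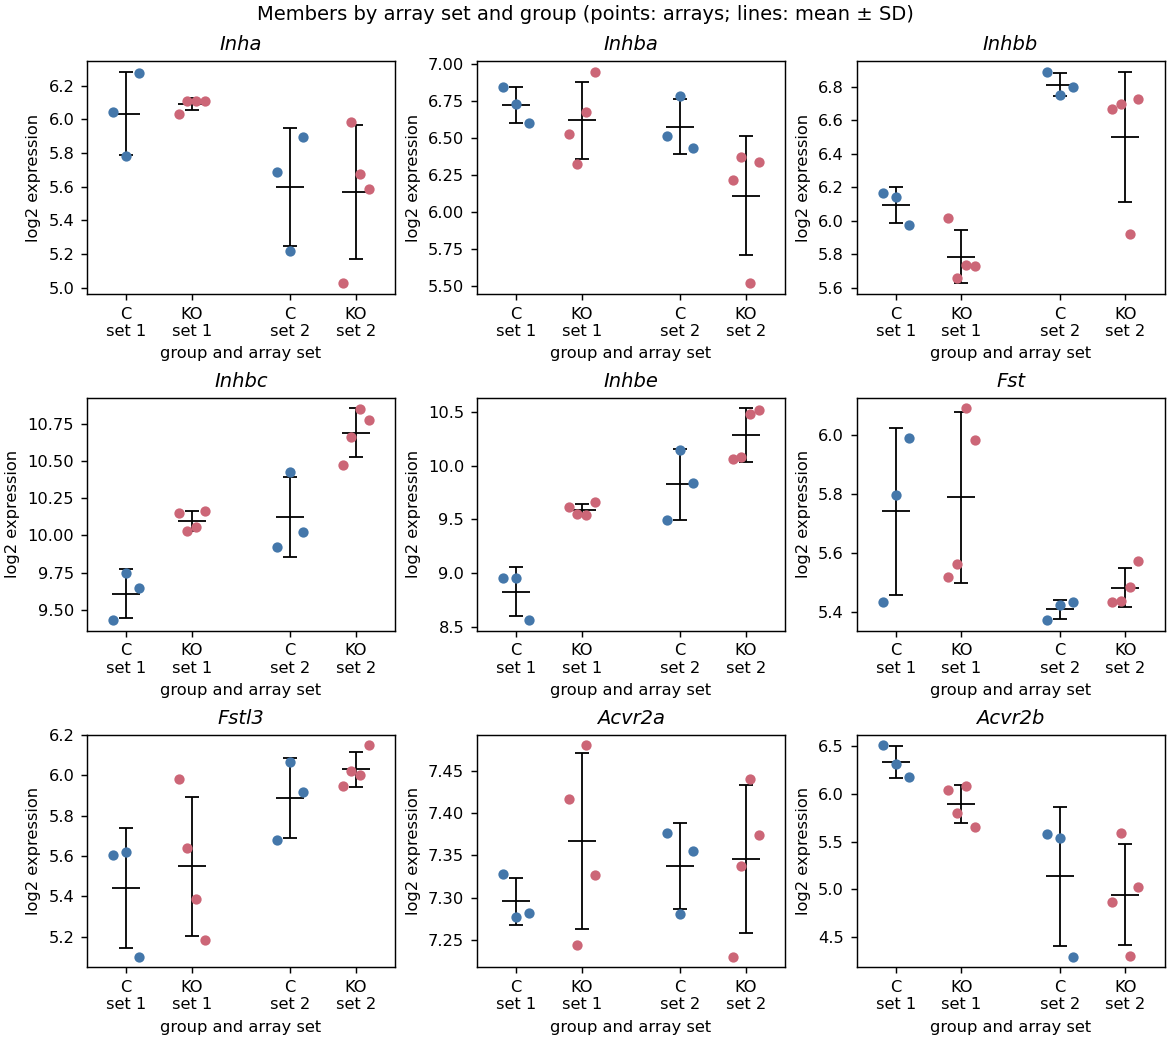
Log2 expression of the 9 members (vertical axes, which differ between panels and do not start at 0) in control (C, blue) and knockout (KO, red) arrays of both sets; points are arrays and lines the mean ± SD of 3 control or 4 knockout arrays. Knockout values of Inhbc lie above every control of their set, from 10.03 in set 1 and from 10.47 in set 2, while Acvr2b scatters from 4.30 to 6.51.

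Inhba and Inhbb encode the subunits of activin A and activin B, which many tissues express. Both averaged lower in knockout samples, and neither passed the fit across all genes. Inhbb had 6.17, 6.14 and 5.97 in the controls of set 1 against 6.02, 5.66, 5.74 and 5.73 in knockout samples, and 6.88, 6.75 and 6.79 against 6.66, 6.70, 5.92 and 6.72 in set 2. Of 8 knockout samples, 7 lay below every control of their set, knockout 1 being the exception, and 1.67% of all genes had at least 7 of 8 below. The difference was -0.31 ± 0.11 over both sets (95% interval -0.55 to -0.07, not adjusted over genes), with -0.31 ± 0.11 in set 1 and -0.31 ± 0.19 in set 2. Without knockout 7, the lowest array of set 2, it was -0.22 ± 0.08 over both sets and -0.12 ± 0.12 in set 2. Inhba had 6.84, 6.73 and 6.60 in the controls of set 1 against 6.53, 6.33, 6.68 and 6.95 in knockout samples, where the groups overlapped. In set 2 it had 6.51, 6.78 and 6.43 against 6.21, 6.37, 5.52 and 6.34. There all 4 knockout samples lay below the controls, a pattern in a single set that was not counted over all genes. The difference of Inhba was -0.29 ± 0.14 (95% interval -0.58 to 0.01), with -0.11 ± 0.15 in set 1 and -0.46 ± 0.21 in set 2. Without knockout 7 it was -0.18 ± 0.10 over both sets and -0.27 ± 0.14 in set 2.

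Inha, the alpha subunit that turns a beta subunit into an inhibin, differed by 0.01 ± 0.14 (95% interval -0.28 to 0.30). Its values ran from 5.78 to 6.28 in the controls of set 1 and from 6.03 to 6.11 in the knockout samples, and from 5.21 to 5.89 and from 5.02 to 5.98 in set 2, so the groups overlapped in both sets.

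The intervals of both follistatin genes included 0. Fst, which encodes the main soluble activin binder and is secreted by the liver in fasting, differed by 0.06 ± 0.10 (95% interval -0.16 to 0.28). In set 1 it ran from 5.43 to 5.99 in controls and from 5.52 to 6.09 in knockout samples, and in set 2 from 5.37 to 5.43 and from 5.43 to 5.57. The groups overlapped in set 1 and met in set 2, where knockout 5 was level with control 6. The difference was -0.03 ± 0.11 without control 1 and control 4. Fstl3, which encodes a follistatin-like activin and myostatin binder, differed by 0.12 ± 0.12 (95% interval -0.13 to 0.38), with 5.10 to 5.62 in controls and 5.19 to 5.98 in knockout samples of set 1. In set 2 it ran from 5.68 to 6.07 in controls and from 5.95 to 6.15 in knockout samples. Its groups overlapped in both sets. Fst, Fstl3 and Acvr2b averaged below the median of all values, 5.80, in both groups over the sets, and Inha lay at 5.82, so these rows may sit near background, whose level is not known here.

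Of the type II receptors, Acvr2a was the steadiest member. It ran from 7.28 to 7.38 in controls and from 7.23 to 7.48 in knockout samples over both sets, with a difference of 0.04 ± 0.06 (95% interval -0.09 to 0.17). Acvr2b was the most variable, with a residual SD of 0.46 within groups and sets against 0.08 for Acvr2a. It had 6.51, 6.32 and 6.17 in the controls of set 1 against 6.04, 5.80, 6.08 and 5.65 in knockout samples. The groups did not overlap there, a pattern in a single set that was not counted over all genes. In set 2 Acvr2b had 5.58, 5.53 and 4.30 against 4.87, 5.59, 4.30 and 5.03, where the groups overlapped. Its difference was -0.32 ± 0.20 (95% interval -0.75 to 0.12), and it was -0.52 ± 0.16 without control 6, -0.22 ± 0.20 without knockout 7 (0.02 ± 0.33 in set 2) and -0.16 ± 0.23 without control 1 and control 4. Acvr2b also had the largest gap between the sets, set 2 minus set 1, at -1.20 in controls and -0.95 in knockout samples. Inhbe had a gap the other way, 1.00 in controls and 0.70 in knockout samples, and Acvr2a almost none, 0.04 and -0.02. The interaction of knockout and set in limma called 0 of 9 members and 0% of all 19505 genes (adjusted p under 0.05, with 943 genes and 0 members at an unadjusted p under 0.05).

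**Figure D2:**
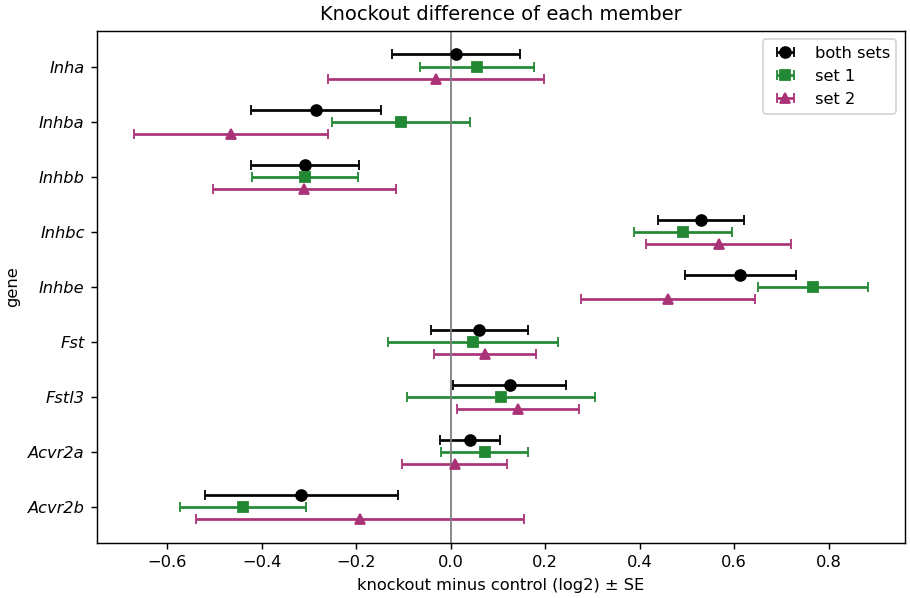
Knockout minus control on the log2 scale for each member, with SE as bars, over both sets (black circles) and in set 1 (green squares) and set 2 (purple triangles) alone. Inhbc and Inhbe lie to the right in each set, between 0.46 and 0.77, and Inhbb lies at -0.31 in each set, which becomes -0.12 in set 2 without knockout 7.

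The deviations of Inhbc and Inhbe from their group and set means were compared, which leaves the knockout difference out. Pearson's r was 0.69 over 14 arrays (exact permutation within groups and sets p = 0.0667, adjusted p = 0.648 over 36 pairs of members) and Spearman's rho 0.74 (exact permutation p = 0.0341, adjusted p = 0.615). Without control 5 and knockout 5, the arrays farthest from the median of Inhbc, r was 0.35. It was 0.90 within set 2 and -0.03 within set 1, and 0.83 without control 1 and control 4. Among the nearest measured protein-coding genes on either side of the pair, Shmt2 had r = 0.80 with Inhbe and Ddit3 0.69. The other neighbours lay between -0.06 and 0.515. Of these values only that of Ddit3 was tested, among the stress response pairs of the closing section (exact permutation p = 0.0574, adjusted p = 0.502). For Ddit3, r was -0.10 in set 1, 0.90 in set 2 and 0.48 without control 4 and control 5. Of all 36 pairs 1 had an unadjusted exact permutation p under 0.05 for Pearson's r, Inhbe with Fstl3 at r = 0.52 (p = 0.0187, adjusted p = 0.648; rho 0.60, p = 0.0209, adjusted p = 0.615; r = 0.41 without control 4 and control 5), and 0 passed after adjustment. Inhba and Inhbb had r = 0.70 (exact permutation p = 0.109, adjusted p = 0.648; rho 0.44, p = 0.165, adjusted p = 0.807), which turned to -0.31 without knockout 2 and knockout 7.

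**Figure D3:**
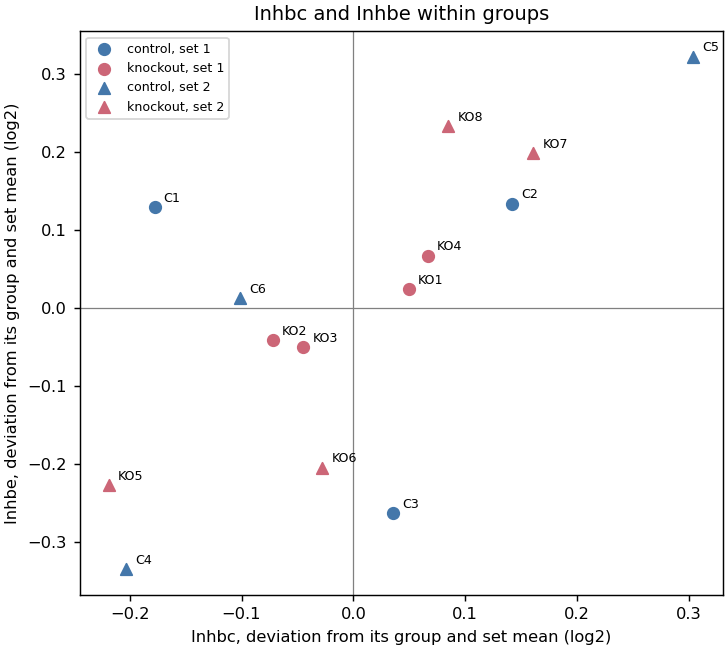
Deviation of Inhbe (vertical axis) against that of Inhbc (horizontal axis) from the mean of their group and array set, in log2 units, for 14 arrays; circles are set 1, triangles set 2, blue control and red knockout. The set 2 arrays lie along a rising line from control 4 and knockout 5 to control 5 (r = 0.90), and the set 1 arrays do not (r = -0.03).

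For the 6 members whose average reached the median of all values, the 3 genes with the most similar deviations were taken from 9821 genes, as a description over 14 arrays that share their preparation. On 10 residual degrees of freedom, the highest of so many correlations can be large between unrelated genes, so nothing is read from their size. For Inhbe the 3 genes were Bop1, a ribosome assembly factor (r = 0.93), the small GTPase gene Rab30 (0.90) and the adiponectin receptor gene Adipor2 (0.88). Rab30 also rose in knockout livers, by 0.62 ± 0.12 (limma adjusted p = 0.0254), and missed the threshold without control 1 or 4, without knockout 3, 4 or 7, and without control 1 and control 4 together (limma adjusted p = 0.112), while Bop1 was 0.10 ± 0.12 and Adipor2 -0.11 ± 0.10. For Inhbc they were Slc31a2 (0.93), Hhip, a hedgehog-binding protein (0.91), and Fam149b (0.90). For Inhba they were Pcsk5, a proprotein convertase (0.91), Rc3h2 (0.90) and Exosc7 (0.85), and for Inhbb Radil (0.92), the activin type I receptor gene Acvr1b (0.88) and AW554918 (0.88). For Inha they were Cyc1 (0.93), Dcaf13 (0.92) and Bcr (0.92), and for Acvr2a Kng1 (0.94), Lpp (0.90) and Tnfrsf1b (0.89). Apart from Rab30, none of these 18 genes passed for knockout against control.

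Of 7 lists of related genes, 5 had no gene past the threshold. Of 15 type I and type II receptors and co-receptors outside the members, 0 passed limma's fit across all genes (1 at an unadjusted p under 0.05, where 10.4% of all genes lay), with a median difference of -0.00 against 0.00 over all genes. Acvr1b, the main type I receptor for activin A, was 0.02 ± 0.10 (95% interval -0.19 to 0.22), Acvr1c, which activin E uses, 0.05 ± 0.10, and the inhibin co-receptor gene Tgfbr3 -0.00 ± 0.10. Acvr1c averaged 3.46 in controls and 3.51 in knockout samples, so its row may sit at background.

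Of 18 SMADs and SMAD regulators 0 passed (2 at an unadjusted p under 0.05 in limma; median 0.01). The signal-carrying Smad2 and Smad3 were -0.08 ± 0.11 and 0.08 ± 0.10, their partner Smad4 -0.09 ± 0.08 and the feedback inhibitor Smad7 0.04 ± 0.07. Of 18 measured other ligands 0 passed (0 at an unadjusted p under 0.05 in limma; median -0.00), with myostatin, Mstn, at -0.04 ± 0.12. Of 18 measured antagonists and proteases 0 passed (0 at an unadjusted p under 0.05 in limma; median 0.00), and Furin, whose product cuts activin precursors, was -0.02 ± 0.08.

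Of 17 measured target genes of activin, BMP and TGF-beta signalling 1 rose and 0 fell (6 at an unadjusted p under 0.05 in limma), with a median of -0.01. The riser was Cdkn1a, the p21 cell cycle inhibitor gene, which other pathways also control, at 0.75 ± 0.11 (limma adjusted p = 0.00873). The other 5 under an unadjusted p of 0.05 went both ways without passing, Timp1 at -0.60 ± 0.20, Junb at -0.42 ± 0.09, Spry4 at -0.35 ± 0.10, Atoh8 at 0.25 ± 0.11 and Id1 at 0.25 ± 0.11. Of 19 measured other liver-secreted hormones and binding proteins 2 rose and 0 fell (6 at an unadjusted p under 0.05 in limma), Fgf21 by 1.17 ± 0.23 (limma adjusted p = 0.0335) and Angptl4, a lipoprotein lipase inhibitor, by 0.55 ± 0.08 (limma adjusted p = 0.00873). Of 18 integrated stress response genes 0 passed (6 at an unadjusted p under 0.05 in limma; median 0.04). Those 6 went both ways, Chac1 at -0.52 ± 0.19, Vldlr at -0.34 ± 0.14, Atf5 at 0.27 ± 0.10, Sesn2 at 0.25 ± 0.11, Cth at 0.24 ± 0.08 and Phgdh at 0.18 ± 0.08, while Atf4 itself was 0.11 ± 0.09. As the lists were chosen with earlier results of these data known, nothing is read from their share of calls. In all, 3 of 123 measured genes of these 7 lists passed, or 2.44%, beside 0.702% of all genes. Without control 1 and control 4 Cdkn1a alone passed among them, Fgf21 having a limma adjusted p of 0.161 and Angptl4 of 0.0599. With 1 array left out, Cdkn1a and Angptl4 passed in 14 of 14 fits and Fgf21 in 3, those without control 5, control 6 or knockout 6 (1.08 to 1.33 over the 14 fits).

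**Figure D4:**
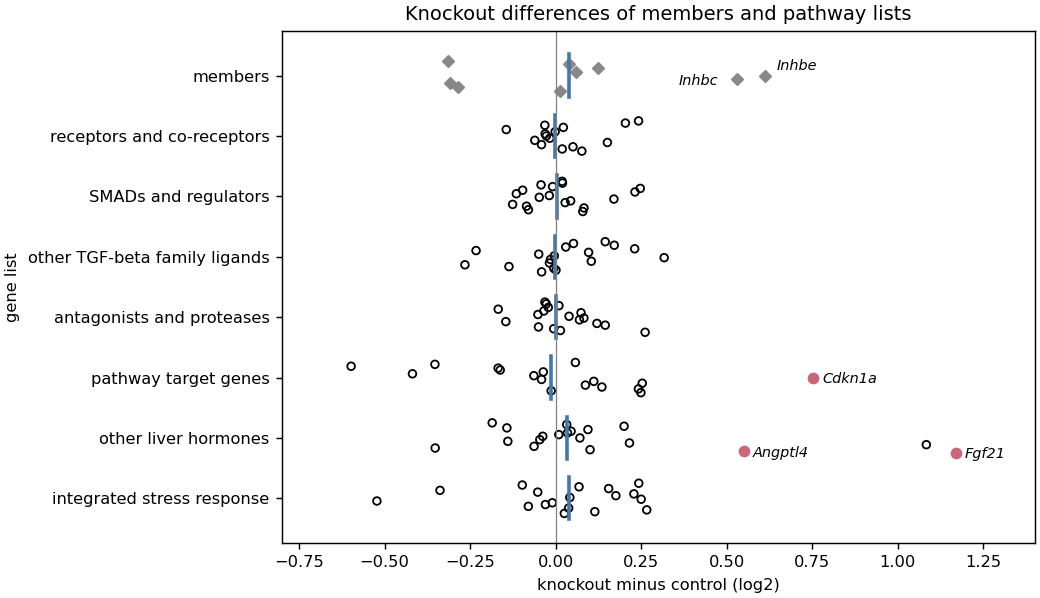
Knockout minus control on the log2 scale for the 9 members (grey diamonds, drawn without calls because they were picked on this contrast) and for 7 lists of related genes (circles, filled red where limma's adjusted p was under 0.05); blue bars mark medians. List medians lie between -0.01 and 0.04, and Cdkn1a, Angptl4 and Fgf21 are the filled points. The lists were chosen with earlier results of these data known.

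Markers of other liver cells were set beside these values, because less RNA per cell and fewer cells of a type cannot be told apart in whole liver. Of 11 sinusoidal endothelium, 10 stellate, 10 Kupffer cell and 5 bile duct markers 0 passed limma's fit (0 at an unadjusted p under 0.05), with medians of 0.06, 0.01, 0.09 and -0.08. Without control 1 and control 4 still 0 passed, and the medians were -0.28, -0.14, -0.14 and -0.09. Knockout 1 and knockout 4, also low in endothelium markers (-0.36 and -0.33 relative to the mean of set 1), were kept. These medians thus come from leaving out low arrays of the control group only. The endothelium list averaged between 7.07 and 8.49 in control arrays and between 7.49 and 8.56 in knockout arrays. Bile duct markers were high in control 3 and knockout 1, by 0.85 and 0.75 above the mean of set 1. Of 9 measured hepatocyte markers 0 passed (2 at an unadjusted p under 0.05 in limma), with a median of 0.02. Their average relative to the mean of the set ran from -0.081 to -0.002 in control arrays and from -0.006 to 0.051 in knockout arrays.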

How the data were processed

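Liver RNA of 14 samples was labelled with a WT PLUS kit for Affymetrix arrays. Values were used as deposited by the authors and taken to be log2, from their range of 2.13 to 13.8. RMA and Partek stand in the submitters' processing notes, with no version, and the arrays were taken as already normalized. Arrays have no read depth, and their number limits the precision.

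Of 22206 rows, 19572 had 1 symbol in the platform annotation; for 55 genes with over 1 row the brightest was used, leaving 19505 genes. Sets of arrays were found by clustering correlations. A linear model of group and set was fitted to every gene in limma 3.58.1 under R 4.3.3 (lmFit, eBayes), and p-values were adjusted by Benjamini-Hochberg at a threshold of 0.05. The set term, the members and the lists were chosen with earlier results of these data known. Pairs were tested by all 20736 permutations within groups and sets, two-sided.

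Named were all members, the targeted genes, 10 fixed pathway genes (1 is not reported here), list genes past the threshold, up to 4 a list, and the 3 most similar genes per member at or above the median, without predicted genes, clones and small RNAs. Other list genes, such as Id1, were chosen after their values were seen. In simulated data of 19505 genes, 75% of 100 genes changed by 0.5 and 97% of 100 genes changed by 1 were called. Beside these, 12 unchanged genes were called. These 12 false calls are to be read against the changed genes that were called, not against all 19505. The alternatives are given in the closing section.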

Additional observations from a re-analysis of the deposited data

Results flagged for a closer look

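Among 36 groups of values, control and knockout over both sets and knockout within each set for each member, 2 held an array far from the others by Dixon's criterion. Chance flags about 1 in 20 groups whose values share a single mean and spread. Groups over both sets mix 2 sets that can differ in mean, so that rate does not hold for them. The groups also overlap. Inhbb in knockout 7 was 5.92, against 6.66 to 6.72 in the other knockout samples of set 2. Inha in knockout 1 was 6.03, against 6.11 in each of the other knockout samples of set 1, a small gap in a narrow group.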

How the results depend on the processing

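There were 27 alternatives, 26 for Fst, Fstl3 and Acvr2b, which a filter on dim genes removed, while the other 6 members passed it. In none did a member's difference move by as much as its residual SD within groups and sets. That SD is wider than the SE of the difference, so Acvr2b, from -0.52 to -0.09, counted as unmoved. Inhbe passed in 13 of 27 alternatives and Inhbc in 21. With the replicate block neither passed (limma adjusted p = 0.407 for Inhbe and 0.3765 for Inhbc). Inhbe lay between 0.46 and 0.77 and Inhbc between 0.42 and 0.59, with the same sign throughout; Inhba, Inhbb, Fstl3, Acvr2a and Acvr2b also kept their sign, while Inha kept it in 21 of 27 and Fst in 23 of 26. In set 2 without knockout 7, an alternative chosen after seeing the data, Inhbe was 0.39, Inhbc 0.51, and the signs of Acvr2b (0.02), Acvr2a (-0.02) and Inha (-0.07) turned. The count over all genes, 137, was 0 in limma when the set was not a term (655 by unadjusted p under 0.05), 256 with dim genes filtered, 325 with trend and robust, 26 without control 1 and control 4, 67 with knockout 5 and 7 and 6 and 8 averaged, 12 without knockout 7 and 8, 2 in set 1 alone, 2 in set 2 alone, 242 at a threshold of 0.1 and 18 at 0.01, and between 44 and 132 with 1 array left out. The count over pathway lists, 3, was 0 when the set was not a term (10 unadjusted), 5 with trend and robust, 1 without control 1 and control 4, 0 without knockout 7 and 8 (18 unadjusted), 0 in set 1 alone (17 unadjusted), 0 in set 2 alone (10 unadjusted), and 2 to 3 with 1 array left out. Fewer arrays or genes enter several of these fits; otherwise the cause was not tested. The interaction count was 0 in limma under every alternative run for it. Replicate numbers did not pair the samples: deviations of same-numbered arrays correlated by 0.02 to 0.09, and 1 of 12 arrays correlated best with its own number; with the replicate block 2 genes and 0 pathway genes (15 unadjusted) passed.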

Other observations

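The genes around Inhbe and Inhbc were looked at after the values of both were known. Among the 4 measured protein-coding genes on either side of the pair, 0 passed limma's fit across all genes. On the Inhbe side Gli1, a hedgehog transcription factor, was 0.01 ± 0.10, Arhgap9 -0.05 ± 0.13, Mars1, a methionyl-tRNA synthetase gene, 0.02 ± 0.09 and the stress factor gene Ddit3 0.04 ± 0.09. On the Inhbc side R3hdm2 was -0.13 ± 0.08, Stac3 -0.28 ± 0.13, Ndufa4l2 -0.20 ± 0.11 and Shmt2, of mitochondrial serine metabolism, -0.13 ± 0.08. The 8 neighbours lay between -0.28 and 0.04. Of all genes, 99.8% had a lower difference than Inhbe and 99.7% than Inhbc, so nothing is read from the neighbours lying below both.

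Deviations of Inhbe and Inhbc from their group and set means were also set against those of 18 integrated stress response genes, 36 pairs in all and chosen after seeing the data. None passed after adjustment. Atf5, an ATF4-related transcription factor gene, had the lowest p with Inhbe, at r = 0.69 over 14 arrays (exact permutation p = 0.00405, adjusted p = 0.146; rho 0.75, exact permutation p = 0.00439, adjusted p = 0.158). It was 0.87 in set 1, 0.63 in set 2 and 0.86 without control 4 and control 5. Ddit4 followed at r = 0.73 with Inhbe (exact permutation p = 0.0330, adjusted p = 0.502; rho 0.73, p = 0.0336, adjusted p = 0.535), and 0.63 without control 4 and control 5. Over the 18 genes the median r was 0.08 for Inhbe, with 2 at an unadjusted exact permutation p under 0.05, and -0.02 for Inhbc, with 0.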
